A study of Rattus norvegicus with 6 samples.

Results

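Cells hold on to their neighbours with cadherins and exchange small molecules with them through connexins, and the rat genes of both kinds were followed here in cells of the temporomandibular joint disc, the fibrous pad of the jaw joint. All rows of the deposited table with a Cdh, Pcdh, Gja, Gjb, Gjc or Gjd symbol ending in its number or cluster letters were taken, which gave 86 of 20675 genes: 22 cadherins, 48 protocadherins and 16 connexins. The treated samples were primary disc cells given GSK101, an agonist of the calcium-permeable channel TRPV4, for 24 h, and their controls were disc cells given the solvent DMSO for 24 h, labelled Ctrl, with 3 libraries in each group. The dose, the rats' strain, sex and age, and whether replicates came from separate animals or cultures are not given in the sources used here, so the p-values measure only the spread between these libraries, which may be technical. Levels are RPKM, reads per kilobase of gene length and scaled to the counted reads of the library, and all gene positions are on the Rnor_6.0 build unless another build is named.

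Classical cadherins are calcium-dependent adhesion proteins that bind cadherins on the next cell and are tied to the actin cytoskeleton by catenins. Protocadherins share the cadherin repeats but lack the catenin-binding tail of classical cadherins, and in mammals most of them lie in 3 neighbouring clusters called alpha, beta and gamma. Connexins assemble into hemichannels that dock between cells as gap junctions, and fibroblasts and chondrocyte-like cells of joints are known to be coupled in this way.

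Markers of cell types were checked first. The fibroblast list was strongly expressed: all 7 of its 8 genes found in the table reached the filter described next, with summed levels of 6714 to 7931 RPKM with GSK101 and 7421 to 8388 RPKM in Ctrl, most of it Col3a1, Col1a1, Thy1 and Fn1. By the test given below 4 of the 7 rose, Pdgfra, Lum, Fn1 and Dcn, and 1 fell, Thy1. Of all tested genes 20.1% rose and 11.9% fell. Fn1 and Dcn passed narrowly (limma adjusted p = 0.0400 and 0.0417), and the Fn1 values of the groups overlapped. Smooth muscle and pericyte genes were also abundant, at summed levels of 2957 to 3220 RPKM with GSK101 and 5363 to 5576 RPKM in Ctrl, most of it Acta2. The leukocyte list summed to 62.3 to 83.1 RPKM with GSK101 and 61.2 to 78.3 in Ctrl, most of it Lyz2. For the chondrocyte list the sums were 34.5 to 36.9 RPKM with GSK101 and 33.9 to 41.7 in Ctrl, most of it Acan. Glial markers summed to 33.7 to 37.3 RPKM with GSK101 and 31.5 to 34.0 in Ctrl, most of it S100b. In these bulk samples fewer cells of a type and less RNA per cell cannot be told apart. The libraries held 43061102 to 45293829 counted reads with GSK101 and 43973072 to 45705238 in Ctrl.

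The test took genes that reached 0.5 RPKM in 3 or more of 6 libraries. Of the 86 genes 25 did, 29.1%, against 61.9% of all genes in the table. They comprised 5 of 22 cadherins, 4 of 12 protocadherins outside the clusters, 3 of 17 beta and 11 of 16 gamma protocadherins, 2 of 16 connexins and none of the 3 alpha rows. Mean levels were uneven, with 5 genes at 10 RPKM or more (Gja1, Cdh11, Pcdhgc3, Cdh13 and Gjc1), 6 between 1 and 10 and 38 under 0.1. Just inside the filter lay Pcdhga3, at 0.511, 0.503 and 0.346 RPKM with GSK101 and 0.453, 0.659 and 0.497 in Ctrl. Just outside it lay Pcdhga6, at 0.344, 0.512 and 0.269 RPKM with GSK101 and 0.516, 0.414 and 0.328 in Ctrl. No exon of the 86 genes overlapped an exon of another gene in the table on either strand.

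Between GSK101 and Ctrl, 2 of the 25 tested genes rose, Gja1 and Pcdh19, and 4 fell, Pcdh20, Cdh11, Cdh13 and Pcdhgc3 (limma on log2(RPKM + 0.5), Benjamini-Hochberg adjusted p under 0.05 over all 12801 tested genes). Of all tested genes 20.1% rose and 11.9% fell, so 8% and 16% of the members stand beside a background in which many genes changed. Gja1 was the member with the largest change, and Cdh11, Cdh13 and Pcdhgc3 were abundant genes that fell by about the same small amount. For 10 of the 25 members the groups were fully apart, against 47.3% of all tested genes. Of the members 16 had a negative log2 fold change, 64%, against 44.3% of all tested genes. Of these 16, 11 were clustered protocadherin rows of chromosome 18, where 14 rows were tested and 3 had a positive value. The median log2 fold change was -0.12 over the members and 0.03 over all tested genes. When all 86 members were tested without the filter, these 6 genes were again the members called.

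**Figure D1:**
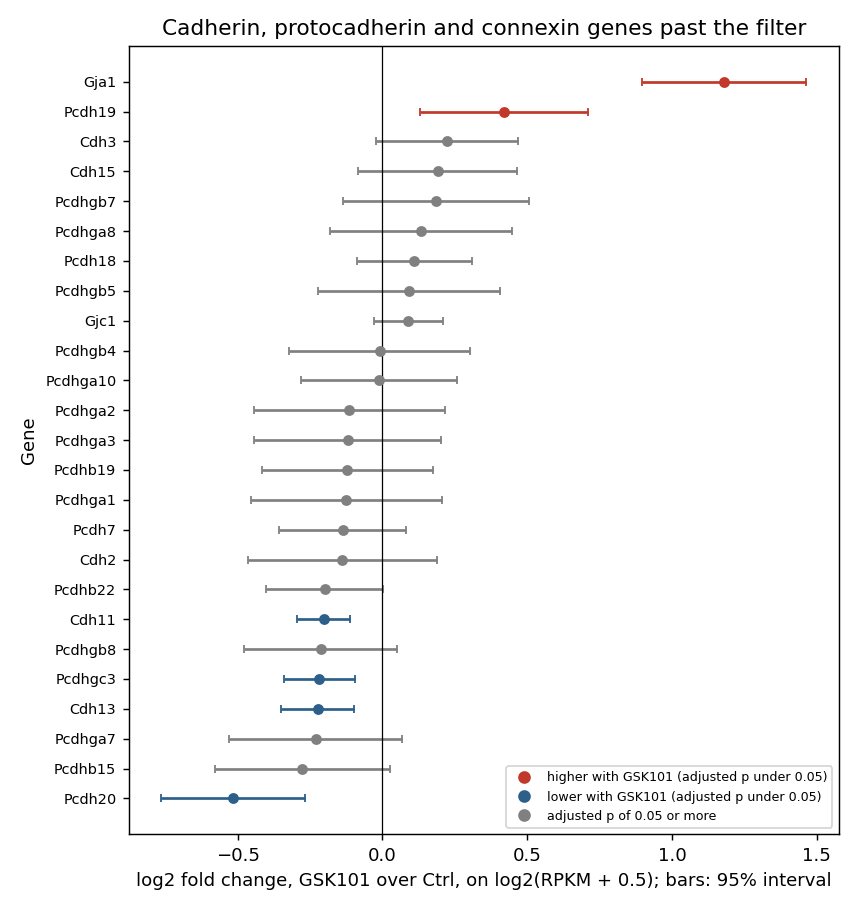
Log2 fold change of GSK101 over Ctrl on the log2(RPKM + 0.5) scale (x axis) for the 25 tested genes (y axis), with 95% intervals from limma on 3 libraries a group. Gja1 stands apart at 1.18, and Pcdh20 has the most negative value at -0.51.

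Gja1 encodes Cx43, the most widely expressed connexin and the main gap junction protein of many connective tissue cells. It had 80.6, 80.8 and 58.0 RPKM in the 3 GSK101 libraries and 33.4, 31.5 and 30.0 RPKM in the 3 Ctrl libraries. Every GSK101 library lay above every Ctrl library, and GSK101 replicate 3 lay well below the other two. The mean was 73.2 ± 13.1 RPKM with GSK101 and 31.7 ± 1.69 RPKM in Ctrl (SD, n = 3 each), a 2.31-fold ratio. On the log2 scale the change was 1.18 (SE 0.12, limma adjusted p = 0.000514), rank 40 from the top among all tested genes. The ratio was 2.55-fold without GSK101 replicate 3 and 2.19-fold without either of the other GSK101 libraries. The measurement rested on 7812 to 11443 reads per GSK101 library and 4147 to 4774 per Ctrl library.

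The gene lies on the plus strand of chromosome 20 from 37876650 to 37889089 and has 2 exons, of 183 and 2944 bases. The title of the series names c-Fos, a subunit of the AP-1 transcription factor, so the 250 bases before the RefSeq start of Gja1 were searched for the AP-1 words TGACTCA and TGAGTCA, which are each other's reverse complement and so cover both strands. Those of Pcdh20, the member with the most negative change, were searched beside them. The sequences are from RefSeq on the GRCr8 build, with Gja1 at chr20:36302314-36302563 on the plus strand and Pcdh20 at chr15:70840299-70840548 on the minus strand, and capitals mark an AP-1 word.
Gja1: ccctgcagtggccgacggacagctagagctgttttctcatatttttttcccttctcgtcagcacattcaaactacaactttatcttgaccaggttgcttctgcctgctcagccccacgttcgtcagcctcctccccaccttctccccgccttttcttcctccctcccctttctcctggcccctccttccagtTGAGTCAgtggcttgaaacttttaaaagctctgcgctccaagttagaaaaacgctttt
Pcdh20: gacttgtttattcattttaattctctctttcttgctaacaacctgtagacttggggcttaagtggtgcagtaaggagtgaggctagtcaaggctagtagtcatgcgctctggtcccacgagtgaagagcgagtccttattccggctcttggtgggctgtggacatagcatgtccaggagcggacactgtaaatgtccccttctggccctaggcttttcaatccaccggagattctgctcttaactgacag
The Gja1 stretch held TGAGTCA from 58 to 52 bases before the start, and the Pcdh20 stretch held neither word. Either word occurred in 4.05% of the 33469 RefSeq promoters of the same length. A promoter was matched by symbol for 59 of the 86 members, and 3 of these held a word, Gja1, Cdh20 and Pcdhga4. Among the 15 tested members with a matched promoter 1 held a word, Gja1, and no promoter was matched for Cdh11, Cdh13 and Pcdh19. A match in the letters is a description and shows no binding.

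The second abundant connexin gene, Gjc1, which encodes Cx45, had 19.9, 19.5 and 18.9 RPKM with GSK101 and 19.1, 18.3 and 17.3 RPKM in Ctrl. The groups overlapped, and its log2 fold change of 0.09 had a 95% interval from -0.03 to 0.21 (limma adjusted p = 0.220). Gja1 was therefore 3.07 to 4.14 times as abundant per length as Gjc1 in the GSK101 libraries and 1.72 to 1.75 times in Ctrl. Of the summed RPKM of all 16 connexin genes, Gja1 made up 77.5 ± 3.09% with GSK101 and 61.9 ± 0.42% in Ctrl (SD, n = 3 each).

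**Figure D2:**
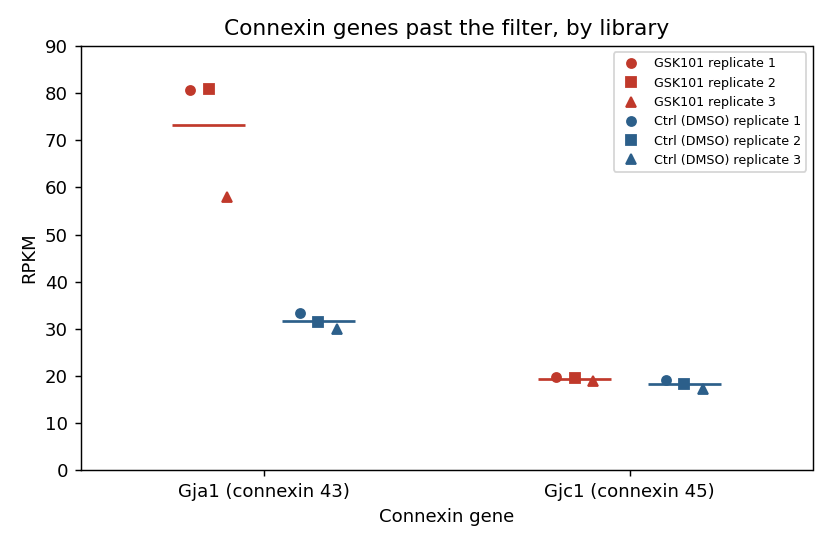
RPKM (y axis) of Gja1 and Gjc1 (x axis) in each library, GSK101 in red and Ctrl in blue, with the group mean as a line. Gja1 lies between 58.0 and 80.8 with GSK101 and between 30.0 and 33.4 in Ctrl, while the Gjc1 values of the groups overlap.

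The other 14 connexin genes were scarce, with at most 32 reads in any library. Gjb2, which encodes Cx26 of epithelia and the inner ear, had 0.154 to 0.183 RPKM with GSK101 and 0.0936 to 0.226 in Ctrl. Gja4, a connexin gene of blood vessel endothelium, had 0.0990 to 0.195 RPKM with GSK101 and 0.138 to 0.229 in Ctrl. For 10 of the 16 connexin genes at least 1 library held no read.

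Cdh11 and Cdh13 were the most abundant cadherin genes, and both fell. Cdh11 encodes cadherin-11, the adhesion protein of mesenchymal cells that holds synovial fibroblasts together, and lies on chromosome 19 from 2393059 to 2551245. It had 34.3, 35.8 and 35.0 RPKM with GSK101 and 40.1, 41.2 and 39.9 RPKM in Ctrl. The groups were separate and each was tight, so a change of modest size exceeded the spread: Cdh11 fell by 0.20 on the log2 scale (SE 0.04, limma adjusted p = 0.00701), a ratio of 0.867. This call held in all 17 alternatives, with adjusted p from 0.0023 to 0.0377.

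T-cadherin, a cadherin anchored in the membrane by a lipid instead of a transmembrane tail, is encoded by Cdh13 on the same chromosome from 50848736 to 51972103. Its levels were 29.8, 31.8 and 29.3 RPKM with GSK101 and 37.6, 34.9 and 34.0 RPKM in Ctrl, without overlap. Cdh13 fell by 0.22 on the log2 scale (SE 0.05, limma adjusted p = 0.0171), a ratio of 0.854. Its adjusted p was 0.0625 after rescaling to TPM, 0.0623 without GSK101 replicate 1 and 0.0553 without GSK101 replicate 3, and ran from 0.00388 to 0.0625 over all alternatives. Cdh11 and Cdh13 kept nearly the same proportion, with a ratio of their levels of 1.13 to 1.19 with GSK101 and 1.07 to 1.18 in Ctrl. Of the 7 tested pericyte and smooth muscle markers, 5 fell as well and none rose, and of the 7 fibroblast markers 1 fell and 4 rose, against 11.9% of all tested genes that fell and 20.1% that rose. The part of either cell type in the falls of Cdh11 and Cdh13 was not tested.

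The other 3 tested cadherin genes were scarcer and did not pass. Cdh3, which encodes P-cadherin, had 2.23, 2.54 and 2.12 RPKM with GSK101 and 2.14, 1.91 and 1.64 RPKM in Ctrl, with overlapping groups and a log2 fold change of 0.22 (95% interval -0.02 to 0.47, limma adjusted p = 0.146). Cdh2, which encodes the N-cadherin of neural, muscle and mesenchymal cells, had 0.631, 0.626 and 0.412 RPKM with GSK101 and 0.792, 0.556 and 0.637 RPKM in Ctrl (log2 fold change -0.14, 95% interval -0.47 to 0.19). The level of Cdh2 was far below that of Cdh11 in each library. Cdh15, the M-cadherin gene of muscle precursor cells, had 0.536, 0.639 and 0.656 RPKM with GSK101 and 0.491, 0.519 and 0.410 RPKM in Ctrl, on 50 to 80 reads. Its groups did not overlap, yet the log2 fold change of 0.19 did not pass (95% interval -0.08 to 0.46, limma adjusted p = 0.261). Of 8 skeletal muscle markers 6 were in the table and 2, Des and Tnnt3, passed the filter. The list summed to 5.50 to 7.12 RPKM with GSK101 and 4.69 to 5.80 in Ctrl, with Myod1 at 0.0715 to 0.204 RPKM with GSK101 and 0.0225 to 0.116 in Ctrl, and Myog without a read in 5 of the 6 libraries.

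**Figure D3:**
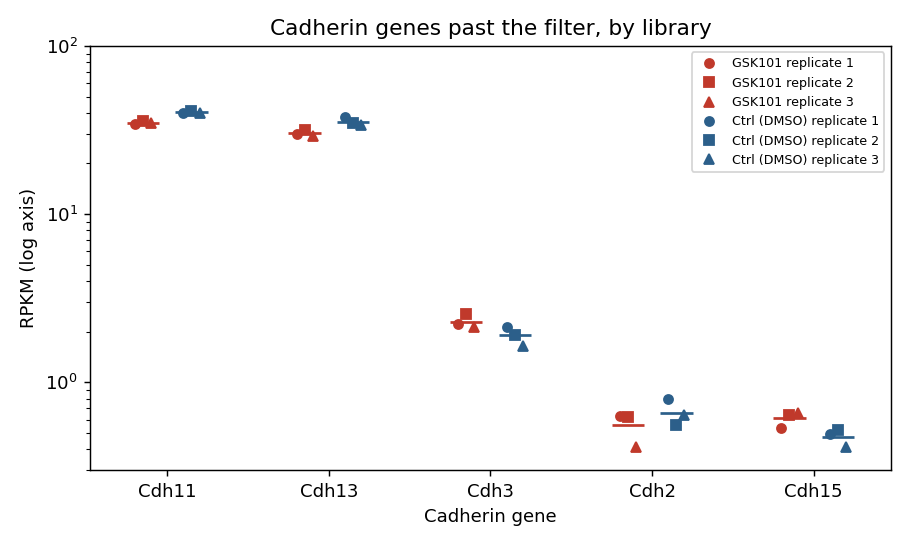
RPKM on a log axis (y axis) of the 5 tested cadherin genes (x axis) in each library, GSK101 in red and Ctrl in blue, with the group mean as a line. Cdh11 and Cdh13 lie near 30 to 41 RPKM, with the GSK101 libraries below Ctrl, and the other genes lie under 3.

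Cdh1, Cdh5 and Cdh19, cadherin genes that mark other cell types, were nearly absent. Cdh1, the E-cadherin gene of epithelia, had 0, 2 and 2 reads with GSK101 and 2, 2 and 4 reads in Ctrl, and the library without a read allows up to 0.0153 RPKM at a floor of 3 reads. Cdh5, the VE-cadherin gene of endothelium, had 0, 0 and 4 reads with GSK101 and 10, 6 and 2 reads in Ctrl, with floors of 0.0167 and 0.0165 RPKM in the libraries without a read. Cdh19, a cadherin gene of Schwann cell precursors, had 2, 0 and 2 reads with GSK101 and 0, 4 and 0 reads in Ctrl, with floors of 0.0150 to 0.0155 RPKM in the libraries without a read. If both mates of a pair were counted, 3 pairs would be 6 reads, and these floors would be 0.0306 RPKM for Cdh1 and up to 0.0335 RPKM for Cdh5. Floors of this kind cover counting error only. Of the remaining 14 cadherin genes below the filter, Cdh24 alone reached 0.5 RPKM in a library, with 0.354, 0.536 and 0.406 RPKM with GSK101 and 0.382, 0.281 and 0.357 in Ctrl.

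Protocadherins outside the clusters act in cell sorting and in the wiring of the nervous system. Pcdh20 fell and Pcdh19 rose, both from low levels. The gene Pcdh20 (chromosome 15, 71772777 to 71779033, minus strand) had 0.555, 0.443 and 0.493 RPKM with GSK101 and 0.887, 0.9748 and 0.909 RPKM in Ctrl. All GSK101 values lay below all Ctrl values, on 104 to 128 reads with GSK101 and 208 to 222 in Ctrl, a ratio of 0.538. It fell by 0.51 on the log2(RPKM + 0.5) scale (SE 0.11, limma adjusted p = 0.00912), and the call held in the 16 alternatives that tested it, with adjusted p from 0.000128 to 0.035.

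Pcdh19, an X-linked gene whose human counterpart is known for a form of epilepsy, had 0.730, 0.605 and 0.829 RPKM with GSK101 and 0.378, 0.377 and 0.480 RPKM in Ctrl. It passed the filter through the GSK101 libraries alone, since no Ctrl library reached 0.5, and the reads numbered 119 to 155 with GSK101 and 72 to 92 in Ctrl. The groups did not overlap and the ratio was 1.75, with a log2 fold change of 0.42 (SE 0.13, limma adjusted p = 0.0368). This was the least stable of the 6 calls: the adjusted p was 0.0637 with quantile normalization, 0.10 and 0.112 without GSK101 replicate 1 and 3, and 0.0910 and 0.0968 without Ctrl replicate 1 and 2. Over all alternatives it ran from 0.00281 to 0.112 and the log2 fold change from 0.29 to 0.80.

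Pcdh7 and Pcdh18 were the most abundant genes of this kind and did not pass. Pcdh7 had 2.82, 2.83 and 2.43 RPKM with GSK101 and 2.91, 2.75 and 3.38 RPKM in Ctrl (log2 fold change -0.14, 95% interval -0.36 to 0.08). Pcdh18 had 1.67, 1.94 and 1.81 RPKM with GSK101 and 1.56, 1.62 and 1.71 RPKM in Ctrl (log2 fold change 0.11, 95% interval -0.09 to 0.31). In both genes the groups overlapped. The other 8 genes of this kind stayed at or below 0.157 RPKM, with at most 32 reads in a library.

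**Figure D4:**
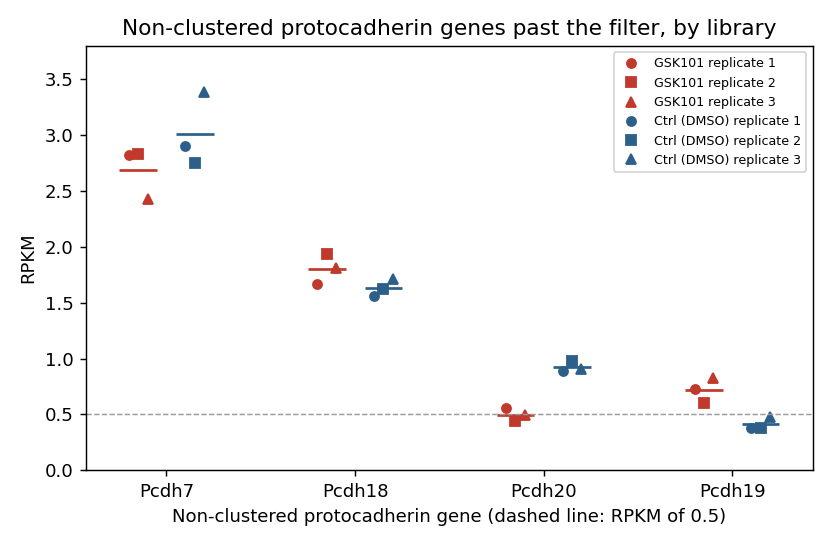
RPKM (y axis) of the 4 tested protocadherin genes outside the clusters (x axis) in each library, GSK101 in red and Ctrl in blue, with the group mean as a line and the level of 0.5 dashed. The Pcdh20 values of GSK101 lie at 0.443 to 0.555, below 0.887 to 0.9748 in Ctrl, and those of Pcdh19 lie above Ctrl.

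The clustered protocadherins occupied chromosome 18 from 29960072 to 30969361 with 36 rows of the table. Neurons are known to use combinations of these proteins to tell themselves from other cells. In the gamma cluster each transcript joins its own long first exon to short exons shared by the whole cluster. Most rows covered a first exon alone, such as Pcdhga1 with 2421 bases, whereas the row named Pcdhgc3 held 10 distinct exons. Of these 2 had the length of first exons, 2436 and 2424 bases, and the rest reached to the 3' end of the cluster at 30969361. A read from the shared end alone could thus be counted to no other gamma row, and the level of Pcdhgc3 is not that of a single transcript. Likewise the row Pcdhac1 covered 27070 bases, against 2370 for Pcdha3.

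Pcdhgc3 was the one clustered row at a high level and the one that was called. It had 32.3, 33.0 and 30.2 RPKM with GSK101 and 39.1, 36.4 and 35.7 RPKM in Ctrl, without overlap, on 6880 to 9456 reads. It fell by 0.22 on the log2 scale (SE 0.05, limma adjusted p = 0.0175), a ratio of 0.858. The adjusted p was 0.0649 after rescaling to TPM and 0.0539 without GSK101 replicate 3, and ran from 0.00382 to 0.0649 over all alternatives.

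The other 15 gamma rows summed to 9.13, 9.42 and 8.42 RPKM with GSK101 and 10.2, 8.58 and 9.01 RPKM in Ctrl, on 876 to 1125 reads, and these sums overlapped. Among the 10 of them that were tested, log2 fold changes ran from -0.23 for Pcdhga7 to 0.18 for Pcdhgb7, none passed, and the lowest adjusted p was 0.195 (limma). Their intervals were wide, from -0.53 to 0.51 at the extremes, on 36 to 162 reads a library, and for 8 of the 10 the interval held the log2 fold change of Pcdhgc3. Pcdhga10 was the most abundant of the 10, at 1.17, 1.12 and 1.37 RPKM with GSK101 and 1.47, 1.10 and 1.14 in Ctrl. Pcdhgb4, with 0.774, 1.13 and 0.888 RPKM with GSK101 and 1.01, 0.765 and 1.04 in Ctrl, and Pcdhga2, with 0.933, 0.890 and 0.946 RPKM with GSK101 and 1.12, 0.758 and 1.29 in Ctrl, overlapped between the groups as well. Pcdhgb8 was the tested first-exon row of the gamma cluster whose groups did not overlap, at 0.528, 0.446 and 0.594 RPKM with GSK101 and 0.704, 0.704 and 0.644 in Ctrl (adjusted p = 0.195). The remaining tested rows, Pcdhga1, Pcdhga3, Pcdhga7, Pcdhga8, Pcdhgb5 and Pcdhgb7, had group means of 0.426 to 0.894 RPKM with GSK101 and 0.512 to 1.06 in Ctrl, with overlap in each.

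In the beta cluster, where each gene is a single coding exon, the 17 rows summed to 5.89, 6.69 and 6.27 RPKM with GSK101 and 7.003, 7.02 and 7.10 RPKM in Ctrl. All 3 tested rows had negative log2 fold changes, and none passed. Pcdhb22 came nearest, with 1.31, 1.33 and 1.46 RPKM with GSK101 and 1.64, 1.54 and 1.74 RPKM in Ctrl, without overlap (log2 fold change -0.20, 95% interval -0.40 to 0.00, limma adjusted p = 0.123). Pcdhb15 did not overlap either, at 0.542, 0.701 and 0.846 RPKM with GSK101 and 1.07, 0.848 and 0.920 RPKM in Ctrl (adjusted p = 0.147). Pcdhb19, at 1.08, 1.35 and 0.868 RPKM with GSK101 and 1.33, 1.17 and 1.18 RPKM in Ctrl, overlapped. In the beta cluster 4 rows below the filter reached 0.5 RPKM in 1 or 2 libraries, Pcdhb2, Pcdhb5, Pcdhb14 and Pcdhb20. The beta genes resemble each other in sequence, and the counting of reads with several mapping places is not known from the sources used here, so the split between these rows is uncertain. The 3 alpha rows together had 0.163 to 0.227 RPKM with GSK101 and 0.133 to 0.256 in Ctrl.

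**Figure D5:**
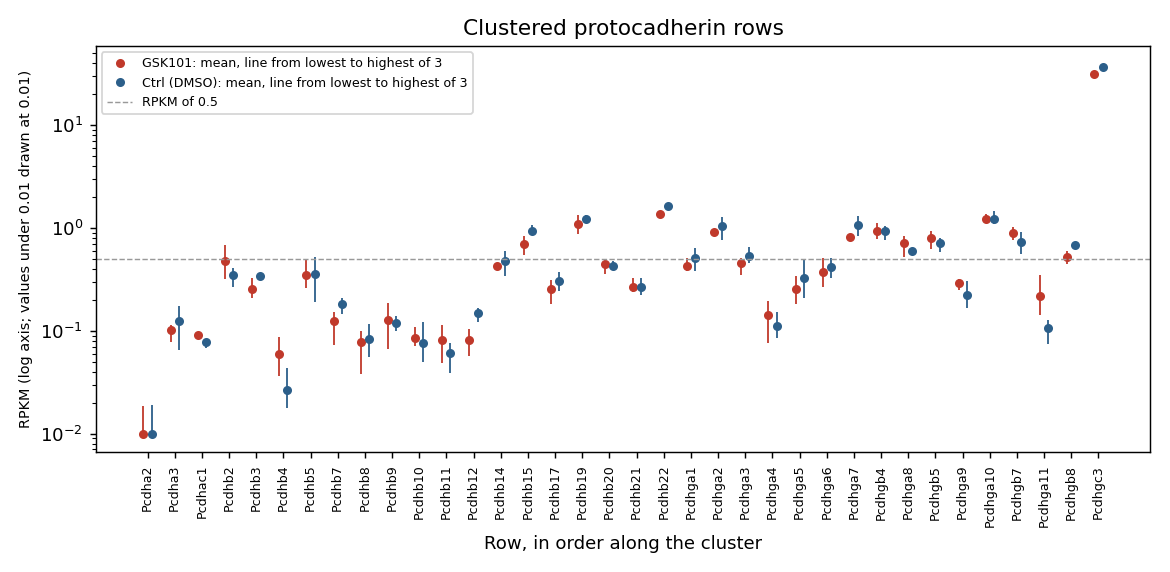
Mean RPKM on a log axis (y axis) of the 36 clustered protocadherin rows in their order along the chromosome (x axis), GSK101 in red and Ctrl in blue, with a line from the lowest to the highest of 3 libraries and values under 0.01 drawn at 0.01. The row Pcdhgc3 lies at 30.2 to 39.1 RPKM, and each other row lies under 2.

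Genes of the proteins that work with cadherins changed in both directions. Of 11 tested genes for catenins and catenin partners 1 rose and 2 fell, against a background of 20.1% higher and 11.9% lower over all tested genes, and their median log2 fold change was -0.06 against 0.03 for all tested genes. Jup, which encodes plakoglobin, the catenin shared by adherens junctions and desmosomes, had 0.759, 1.04 and 0.889 RPKM with GSK101 and 1.72, 1.68 and 1.75 RPKM in Ctrl. It fell by 0.67 on the log2(RPKM + 0.5) scale (limma adjusted p = 0.00269), and the ratio of its means was 0.523. Arvcf, a relative of p120 catenin, fell by 0.41 (adjusted p = 0.00911), with mean levels of 1.64 RPKM with GSK101 and 2.35 RPKM in Ctrl. Pkp1, a plakophilin of the desmosomal plaque, rose by 0.40 (adjusted p = 0.00596), with means of 10.5 RPKM with GSK101 and 7.88 RPKM in Ctrl. The abundant core catenins, chosen here after their values were seen, did not pass: Ctnnb1, which encodes beta-catenin, averaged 89.1 ± 1.56 RPKM with GSK101 and 85.7 ± 2.76 RPKM in Ctrl, and Ctnna1, which encodes alpha-catenin, 62.1 ± 1.72 RPKM with GSK101 and 64.7 ± 3.28 RPKM in Ctrl (SD, n = 3 each).

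Among the cadherin relatives outside the families above, desmosomal, FAT, Dachsous, CELSR and calsyntenin genes included, 20 of 25 listed genes were found and 6 were tested, of which 1 rose and 1 fell beside the background of 20.1% and 11.9%, and their median log2 fold change was 0.05. Cdhr1, known as a cadherin of photoreceptors, had 13.6, 15.4 and 14.1 RPKM with GSK101 and 9.16, 8.60 and 7.73 RPKM in Ctrl and rose by 0.72 on the log2 scale (SE 0.08, limma adjusted p = 0.000524). It was called in all 17 alternatives. Fat1, a giant atypical cadherin, fell by 0.20 (adjusted p = 0.0422), with 32.6 ± 1.34 RPKM with GSK101 and 37.7 ± 2.94 RPKM in Ctrl (SD, n = 3 each). Fat1 passed in 9 of 17 alternatives, and its adjusted p ran from 0.00933 to 0.121. It did not pass without GSK101 replicate 1, 2 or 3 or Ctrl replicate 1 or 3.

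Nectins, tight junction scaffolds and pannexins numbered 13 tested genes, of which 2 rose and 4 fell, against 20.1% and 11.9% of all tested genes, and their median log2 fold change was -0.03. Panx3, a pannexin of cartilage and bone, had 0.278, 0.219 and 0.153 RPKM with GSK101 and 0.687, 0.601 and 0.757 RPKM in Ctrl. It thus passed the filter through the Ctrl libraries alone. Panx3 fell by 0.72 on the log2(RPKM + 0.5) scale (limma adjusted p = 0.00514), and the ratio of its means was 0.318. Tjp1, chosen here after its values were seen, encodes ZO-1, a scaffold that binds the tail of Cx43. It had 10.5, 10.9 and 10.1 RPKM with GSK101 and 8.99, 7.98 and 8.92 RPKM in Ctrl, and rose by 0.27 (adjusted p = 0.0148, and 0.0565 without GSK101 replicate 2). Of the scaffold genes Magi3 and Magi1, which encode membrane-associated guanylate kinases, Magi3 rose by 0.49 (adjusted p = 0.000396) and Magi1 fell by 0.26 (adjusted p = 0.00413). Nectin2, which encodes an immunoglobulin-like adhesion protein of adherens junctions, fell by 0.32 (adjusted p = 0.00496).

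Of 8 tested transcription factors known to repress or switch cadherins 3 rose and 0 fell, where 20.1% of all tested genes rose and 11.9% fell, and their median log2 fold change was 0.11. Zeb1, a repressor of E-cadherin in epithelia, had 40.6, 39.8 and 39.2 RPKM with GSK101 and 25.9, 28.2 and 28.0 RPKM in Ctrl and rose by 0.54 on the log2 scale (limma adjusted p = 0.000275). Its relative Zeb2 rose by 0.34 (adjusted p = 0.00175) and Snai1, which encodes Snail, by 0.50 (adjusted p = 0.00921). All 3 were called in all 17 alternatives. Snai2 and Twist1 were also well expressed, but their log2 fold changes of 0.07 and 0.11 did not pass. Of these Snai2 was chosen here after its values were seen.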

How the data were processed

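The authors deposited 1 table of RPKM values with gene positions and lengths for 6 libraries of polyadenylated RNA. The submitters' processing notes list edgeR 3.12.1, Subread 1.5.1 and featureCounts, the aligner STAR 2.5.3a, Trimmomatic 0.36 and the build Rnor_6.0, without their settings. RPKM times length summed to 1000000 per library and gave whole reads within 0.01 for 100% of values. Even numbers made up 71.3% to 74.7% of the genes with 1 to 10 such reads, so read pairs may have been counted as 2 reads. Collapsing of molecular identifiers, use of strand and treatment of multi-mapping reads are not stated in the sources used here.

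Groups were compared with limma 3.58.1 (R 4.3.3), fitted to log2(RPKM + 0.5) for 12801 genes with at least 0.5 RPKM in 3 of 6 libraries, with group as the only term, a mean-variance trend and Benjamini-Hochberg adjustment. It was tested on simulated data. Such fold changes understate the change of low genes. Ratios of mean RPKM therefore stand beside them for the called members and for Jup, Panx3, Kdr and Erg. All tested members are named, and some results on untested members are not reported here. Of each partner list the 4 lowest adjusted p, or the 2 most abundant where fewer than 2 passed, were to be named, and exceptions are marked; members without a call are partly left out. The members and lists were chosen with earlier results of these data known. The count test planned for whole reads was limma-voom. Exons of a gene that overlap another row were looked up in the table. Marker lists of 8 cell types were examined, of which the epithelial, glial, leukocyte and chondrocyte lists had 1, 3, 3 and 3 tested genes with 0, 1, 1 and 0 called.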

Additional observations from a re-analysis of the deposited data

How the results depend on the processing

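Over 17 alternatives Gja1, Cdh11 and Pcdh20 were called in each setting that tested them, with log2 fold changes of 1.10 to 1.34, -0.25 to -0.17 and -0.90 to -0.36. The number of members called higher was 2, and was 1 with an RPKM of at least 1 required, with quantile normalization, with the replicate block and, when each library was left out in turn, between 1 and 2. The number called lower was 4, and was 3 with an RPKM of at least 1 required, which left Pcdh20 untested, 2 after rescaling to TPM and between 2 and 4 when each library was left out. Quantile normalization and the fit without a mean-variance trend added Pcdhb22 to the lower calls. Of 412 refitted values of single members 9 changed sign, all of uncalled genes near 0: Pcdhgb4 at 0.018 after rescaling to TPM and from -0.11 to 0.072 without 1 library, and Pcdhga10 at 0.018 after rescaling to TPM and from -0.070 to 0.082 without 1 library. Among all genes the share of calls that were higher was 62.9%, but 72.4% after rescaling to TPM, 52.7% with median-ratio scaling and 48.1% with quantile normalization, and the scalings shifted the median log2 fold change by -0.056 to 0.036. The replicate numbers gave no sign of pairing between the libraries (correlations of same-numbered deviations of 0.05, -0.06 and 0.05). With 3 libraries in a group these values cannot exclude a weak pairing. With the replicate numbers as a block 1 member was called higher and 4 lower, and Pcdh19 had a limma adjusted p of 0.0537. The cause of these differences was not tested. At this depth rows with few reads had wide intervals.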

Other observations

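Kdr and Erg were the endothelial markers past the filter, although Cdh5 was nearly absent. Kdr, a receptor of vascular endothelial growth factor, had 0.993, 1.07 and 0.9753 RPKM with GSK101 and 0.643, 0.510 and 0.5004 RPKM in Ctrl. It rose by 0.53 on the log2(RPKM + 0.5) scale (limma adjusted p = 0.00875), and the ratio of its means was 1.84. Erg, a transcription factor of endothelium and of joint cartilage, averaged 2.15 RPKM with GSK101 and 3.94 RPKM in Ctrl, a ratio of 0.545. It fell by 0.75 on the same scale (limma adjusted p = 0.000716). The whole list summed to 3.42 to 3.49 RPKM with GSK101 and 4.46 to 5.13 RPKM in Ctrl.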
